A study of Mus musculus with 4 samples.

Results

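The osteoblast lineage transcription factors Runx2, Sp7, Dlx3, Dlx5, Msx1, Msx2, Atf4, Twist1 and Mef2c were followed in primary osteocyte cultures of αKO and WT mice. They were taken by symbol from the deposited table of gene counts, 9 of its 37411 genes. No value entered this rule, but the set of factors was named with earlier results of these data known. All 9 were found and all 9 passed the filter on low counts. The values were read in 4 libraries, 2 from αKO mice, which lack the nuclear receptor PPARα in the whole body, and 2 from WT mice. The labels give each genotype 2 biological replicates, and for all 4 cultures femora of mice aged 5 months, strain C57BL/6, and 6 days of ex vivo growth in aMEM with 5% FBS and 5% CS and no treatment. The authors' own table of the comparison names DMSO for both genotypes, so whether a vehicle was added is unclear. The study's methods state another age and a longer culture, and they place the αKO allele on a 129S4/SvJae background. In this allele a neomycin cassette stands in for part of the coding sequence of Ppara. The methods call the purchased WT mice adequate but do not name their strain. If the strains differ, genotype and strain cannot be told apart here. The same methods describe the cultured cells as the osteocyte-enriched fraction of a serial collagenase and EDTA digestion of bone, which is an enrichment and not a pure population.

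These factors act in sequence when a mesenchymal cell becomes an osteoblast and later an osteocyte. RUNX2, a runt-domain protein, commits the cell to the lineage, and SP7 (osterix), a zinc-finger protein, is needed after it for bone formation. The homeobox proteins DLX3 and DLX5 mostly activate bone genes, MSX1 and MSX2 act largely as repressors in skeletal progenitors, TWIST1 restrains RUNX2, ATF4 serves amino acid supply and late osteoblast genes, and MEF2C binds the distant enhancer of Sost in osteocytes but also works in muscle and myeloid cells.

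The counts summed to between 25136628 and 27496137 per library. Ppara, the targeted gene, had 15 and 9 counts in αKO replicates 1 and 2 and 16 and 13 counts in WT replicates 1 and 2, and transcripts of the exons left in the allele are counted too, so this does not check the labels. Of the osteocyte markers, Sost and Fgf23 had 0 counts in all 4 libraries, which allows up to 3 counts in each, and Mepe had at most 4, while Dmp1 and Pdpn were present. The libraries also differed by GC content of the transcripts: genes were ordered by GC content and split into 10 bins of like size, and from the lowest to the highest bin the median deviation in log2 CPM from the mean of the 4 libraries ran from 0.51 to -0.98 in WT replicate 1, from -0.37 to 0.65 in WT replicate 2, from 0.15 to -0.13 in αKO replicate 1 and from -0.25 to 0.51 in αKO replicate 2. CPM here are counts relative to library size after TMM scaling, and TPM are values of the authors that also allow for transcript length.

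Runx2 and Sp7, which stand at the head of the osteoblast program, were the factors with the smallest p between genotypes. Runx2 was 2.30-fold and Sp7 3.83-fold lower in αKO than in WT cultures, and for each both αKO libraries lay under both WT libraries. Msx2 was lower by the same order of libraries, but mainly through WT replicate 2. The remaining 6 factors overlapped between the genotypes. Over all 9 factors, 8 had a log2 fold change under 0, where 50.8% of all 13571 genes tested did. The median of the 9 was -1.20, but -0.32 with 7 under 0 without WT replicate 2. It was -0.55 with 6 under 0 without αKO replicate 1. Without WT replicate 1 it was -0.90 and without αKO replicate 2 -1.55, each with 8 under 0. In 3 of the 9 both αKO libraries lay under both WT libraries, against 16.0% of all genes, and in none did both lie above, against 17.1%. By edgeR's quasi-likelihood test at an unadjusted p under 0.05, Runx2 and Sp7 were lower, against 2.59% of all genes, and no factor was higher, against 2.81%. No factor passed an adjusted p of 0.05, nor did any of the 13571 genes (0% called), whereas 351 genes were lower and 381 higher at the unadjusted threshold, DESeq2 called 52 genes, edgeR's likelihood ratio test 28 and limma voom 0, none of them among the 9. With 2 libraries against 2, an exact permutation test of a single value cannot give a p under 0.3333. In these bulk cultures fewer cells of a type and less RNA per cell cannot be told apart.

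**Figure D1:**
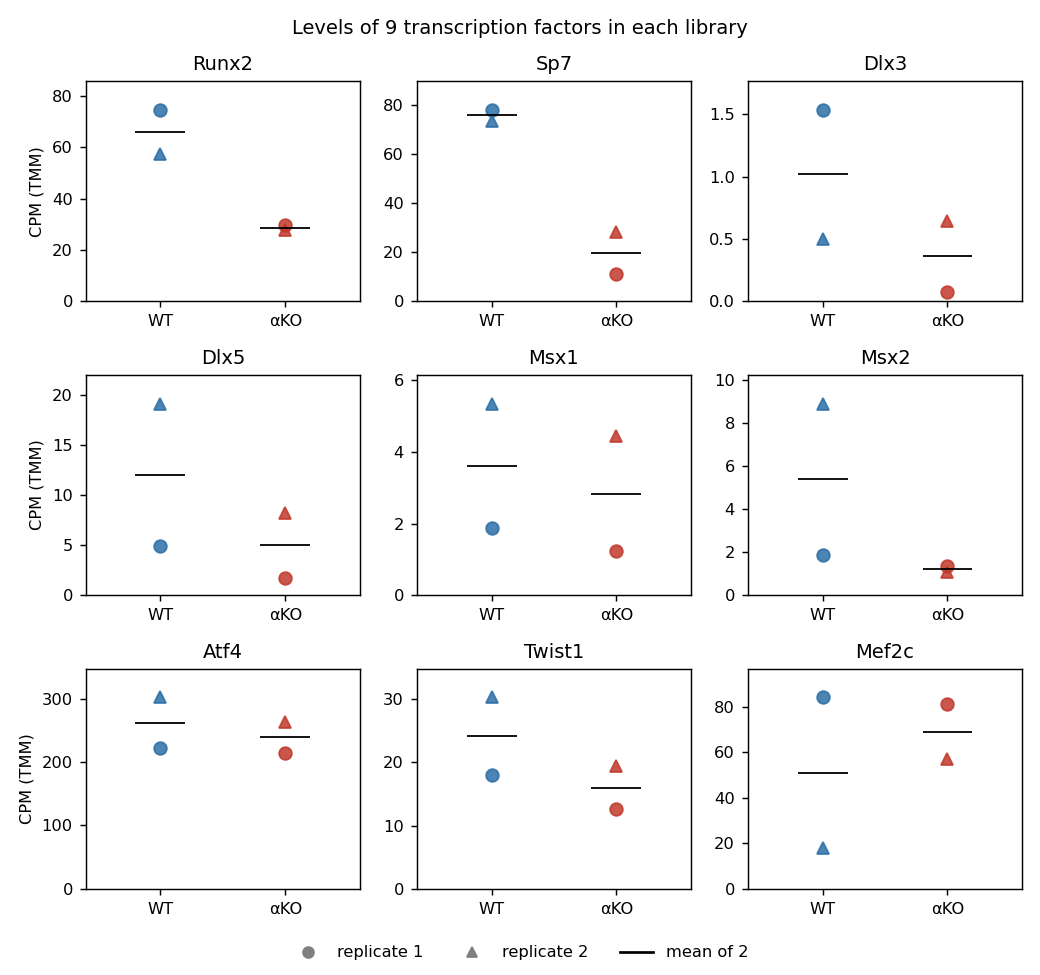
Level of each factor in CPM (vertical axis, from 0) in WT and αKO libraries, with circles for replicate 1, triangles for replicate 2 and a line for the mean of 2 libraries. Runx2 and Sp7 lie apart between the genotypes, Msx2 is set by WT replicate 2 at 8.89 CPM, and the other 6 factors overlap.

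Runx2 (ENSMUSG00000039153.16, chr17:44495987-44814797, minus strand, mm10) had 29.7 and 27.8 CPM in the αKO libraries (replicates 1 and 2, always in this order) and 74.7 and 57.3 CPM in the WT libraries, from 779, 689, 1994 and 1488 counts. Both αKO libraries were low and close to each other, and the lower WT library was still well above them. The means were 28.7 ± 1.33 CPM (SD, n = 2) and 66.0 ± 12.3 CPM (SD, n = 2). The log2 fold change of αKO over WT was -1.20 (standard error 0.312), with an unadjusted p of 0.0112 and, in edgeR, an adjusted p of 0.902. It stayed between -1.42 and -0.97 under all 15 alternatives, of which only that without WT replicate 2 passed the threshold (adjusted p = 0.0233 in edgeR, where 4.88% of all genes were called), and its unadjusted p was above 0.05 without αKO replicate 1 and without αKO replicate 2. Runx2os1, an antisense gene with 7 to 22 counts per library, covers 5.87% of the exonic bases of Runx2, and the strand setting of the counting is not given in the sources used here, so its reads cannot be told apart from those of Runx2 there.

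Sp7 (ENSMUSG00000060284.7, chr15:102356606-102367182, minus strand) had 11.2 and 28.4 CPM in αKO and 77.9 and 73.5 CPM in WT replicates 1 and 2, from 293, 703, 2081 and 1909 counts. Here the WT libraries were close to each other and the αKO libraries 2.54-fold apart, with αKO replicate 1 the lowest. The means were 19.8 ± 12.2 CPM (SD, n = 2) and 75.7 ± 3.16 CPM (SD, n = 2), and the log2 fold change was -1.94 (standard error 0.515, unadjusted p = 0.0123, adjusted p = 0.902 in edgeR). Its size rested in part on that library, with -2.75 without αKO replicate 2 and -1.42 without αKO replicate 1, where its unadjusted p was above 0.05. Without WT replicate 2 the adjusted p was 0.0266 in edgeR, and in DESeq2 on all 4 libraries it was 0.0765. Sp7 lies 16.55 Mb and Atf4 5.48 Mb from Ppara on the same chromosome, and the part of strain sequence near the targeted allele in their values was not tested.

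The promoters of Runx2 and of Bglap, the osteocalcin gene that RUNX2 is known to activate, are shown because the RUNX binding motif, TGTGGT read on both strands, occurs in both and both transcripts were lower. They were thus picked by outcome, and the choice carries no test. Sequences are RefSeq's (GRCm38.p6), 250 bases before to 50 bases after the transcript start, on the gene's own strand, Runx2 from chr17:44814578-44814877 (minus) and Bglap from chr3:88384417-88384716 (minus). Capitals mark the motif.
Runx2: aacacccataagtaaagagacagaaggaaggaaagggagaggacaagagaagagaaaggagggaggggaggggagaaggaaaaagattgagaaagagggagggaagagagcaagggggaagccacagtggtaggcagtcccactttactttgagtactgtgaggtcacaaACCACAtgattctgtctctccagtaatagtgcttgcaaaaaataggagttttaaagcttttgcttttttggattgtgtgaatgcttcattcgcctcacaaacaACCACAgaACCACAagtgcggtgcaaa
Bglap: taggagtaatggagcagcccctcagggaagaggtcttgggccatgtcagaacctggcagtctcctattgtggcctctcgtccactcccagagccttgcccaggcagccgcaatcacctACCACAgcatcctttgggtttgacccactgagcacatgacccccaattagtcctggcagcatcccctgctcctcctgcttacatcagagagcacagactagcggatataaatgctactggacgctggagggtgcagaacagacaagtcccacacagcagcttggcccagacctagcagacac
The Runx2 window holds 3 matches, which begin at -80, 24 and 32 from the start, and the Bglap window 1, which begins at -132. Of the 9 factors 6 had promoters in the table, 8 promoters in all. That of Runx2 was the only 1 of these 8 with a match, against 16.8% of 32851 promoters in the table. Of the bone targets described below, 12 of 15 had promoters, 17 in all. Of these 17, 5 held the motif, those of Bglap, Dmp1, Mepe, Mmp13 and Spp1. Spp1 RNA hardly differed between genotypes (log2 fold change -0.05), and Mepe was too low to test. No match to a direct repeat of AGGTCA with 1 base between, the form of site that PPARα binds with RXR, was found in the windows of these 6 factors, against 0.0396% of all promoters. These matches describe letters in a window and are not measured binding.

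Of the 4 homeobox genes, which were expressed at low levels, Dlx5 (chr6:6877805-6882085, minus strand) had the most counts. Its levels were 1.75 and 8.23 CPM in the αKO and 4.94 and 19.1 CPM in the WT libraries. Replicate 2 was thus 4.70-fold higher than replicate 1 in αKO and 3.87-fold higher in WT, and the genotypes overlapped. The log2 fold change of Dlx5 was -1.27 (standard error 0.964), or -0.02 if WT replicate 2 was left out. Dlx3 (chr11:95120119-95125296, plus strand), its close relative, had 2, 16, 41 and 13 counts in αKO replicates 1 and 2 and WT replicates 1 and 2, with 95% Poisson intervals of 0.242 to 7.22, 9.15 to 26.0, 29.4 to 55.6 and 6.92 to 22.2, which cover counting error only. The lowest library was from αKO and the highest from WT, but αKO replicate 2 and WT replicate 2 fell in each other's interval, and the log2 fold change of -1.49 (standard error 1.10) ran from -3.65 without αKO replicate 2 to -0.45 without WT replicate 1.

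Msx2 (chr13:53466884-53473074, minus strand) had 36 and 27 counts in αKO and 50 and 231 counts in WT replicates 1 and 2, or 1.37, 1.09, 1.87 and 8.89 CPM. The groups did not overlap, but WT replicate 1 lay closer to the αKO libraries than to WT replicate 2. The log2 fold change was -2.12 (standard error 0.839, unadjusted p = 0.0509, adjusted p = 0.930 in edgeR), and -0.64 without WT replicate 2. Without WT replicate 1 it was -2.82 (adjusted p = 0.0129 in edgeR, where 5.74% of all genes were called). The chondrocyte gene Col2a1 moved in part with it, at 23.1 and 58.1 CPM in αKO and 10.2 and 208 CPM in WT. The 5 chondrocyte markers summed to 31.0, 64.6, 16.3 and 222 CPM in the same order, but most of this was Col2a1 itself. Col10a1 varied less, at 7.66, 6.13, 5.88 and 11.0 CPM. Acan had 1, 0, 3 and 59 counts, and Col9a1 and Matn1 had at most 10. The part of cartilage cells in the Msx2 value was not tested. Msx1 (chr5:37820485-37824583, minus strand) had 1.22 and 4.44 CPM in αKO and 1.87 and 5.35 CPM in WT, so that each genotype had a low replicate 1 and a higher replicate 2. The log2 fold change of Msx1, -0.35 (standard error 0.840), turned to 0.30 without αKO replicate 1 and to 0.56 without WT replicate 2.

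Atf4 (chr15:80255184-80257541, plus strand) was the most abundant of the factors and differed least between the genotypes, with 214 and 264 CPM in αKO and 222 and 302 CPM in WT replicates 1 and 2. The replicates of a genotype were farther apart than the genotypes. The log2 fold change of Atf4 was -0.13 (standard error 0.314), or 0.07 if WT replicate 2 was left out. ATF4 activity is known to be set mainly by translation, which RNA levels do not show. Twist1 (chr12:33957671-33959829, plus strand), which holds back osteoblast differentiation, had 12.6 and 19.4 CPM in αKO and 18.0 and 30.2 CPM in WT. The higher αKO library lay just above the lower WT library, and the log2 fold change was -0.59 (standard error 0.438).

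Mef2c (chr13:83504034-83667080, plus strand) was the only factor with a log2 fold change above 0. Its levels were 81.2 and 56.9 CPM in the αKO and 84.2 and 18.1 CPM in the WT libraries. WT replicate 1 was the highest and WT replicate 2 by far the lowest library, with the αKO libraries between them. The log2 fold change of 0.43 (standard error 0.732) therefore turned with the library left out, to 1.95 without WT replicate 1 (adjusted p = 0.0175 in edgeR) and to -0.32 without WT replicate 2. The macrophage markers, whose cells also express Mef2c, were as a sum lowest in the same library. All 21 were detected, and their summed levels were 38040 and 31497 CPM in αKO and 25562 and 14325 CPM in WT replicates 1 and 2. Lyz2 alone gave 20024 and 14956 CPM in αKO and 14015 and 8516 CPM in WT. Cd14, Spi1 and Tyrobp were lowest in WT replicate 1 instead. Per 1000 CPM of the 21 summed markers, Mef2c was at 2.14 and 1.81 CPM in αKO and 3.29 and 1.26 CPM in WT. The part of macrophages in the Mef2c value was not tested.

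Much of the variation among the 9 factors lay between replicates and not between genotypes. In 4 of them (Dlx5, Msx1, Atf4 and Twist1) the gap between replicates exceeded the difference between the genotype means on the log2 CPM scale in both genotypes. In the same 4, replicate 2 was above replicate 1 in both genotypes, which held for 35.6% of all genes tested. The GC content of the 9 transcripts ran from 40.8% in Mef2c to 59.3% in Twist1. When each library's trend with GC content was removed, the gap between replicates of Twist1 fell from 0.62 to 0.04 (log2) in αKO but turned from 0.74 to -0.82 in WT, and Twist1, Msx1 and Atf4 joined Runx2, Sp7 and Msx2 among the factors with both αKO libraries under both WT libraries, 6 of 9 against 23.0% of all genes. On this scale both αKO libraries of Mef2c lay above both WT libraries. With the GC trend as an offset in edgeR, Runx2, Sp7, Msx2 and Twist1 were lower at an unadjusted p under 0.05, against 6.61% of all genes, and the log2 fold change of Twist1 was -0.97. Relative to the mean log2 CPM of the 15 stromal markers, Runx2, Sp7 and Msx2 kept both αKO libraries under both WT libraries, 3 of 9 against 7.26% of all genes, with differences of -1.01, -1.91 and -1.51 (log2). That mean deviated by 0.23 and -0.40 in αKO replicates 1 and 2, whereas the summed CPM of the same markers, 7438 and 8610, were higher in replicate 2. The 2 stromal scales thus order the αKO libraries differently. By ratio, Lum, Dcn and Thy1 differed most of the 15 markers between these libraries. They were at 7.13, 25.1 and 7.05 CPM in αKO replicate 1 and 0.484, 1.53 and 0.242 CPM in αKO replicate 2. The part of these genes in the stromal mean was not tested.

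**Figure D2:**
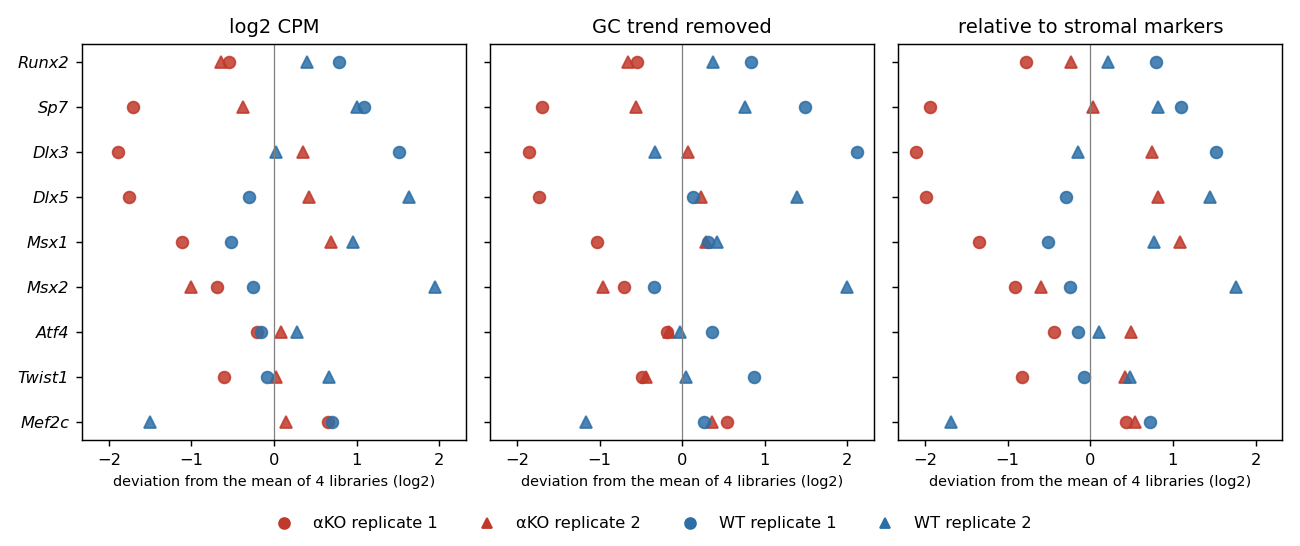
Deviation of each factor from its mean over the 4 libraries (horizontal axis, log2) on the log2 CPM scale, with the GC trend of each library removed, and relative to the stromal markers. Red symbols are αKO, blue WT, circles replicate 1 and triangles replicate 2. The αKO symbols of Runx2 and Sp7 lie left of the WT symbols in all 3 panels.

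**Figure D3:**
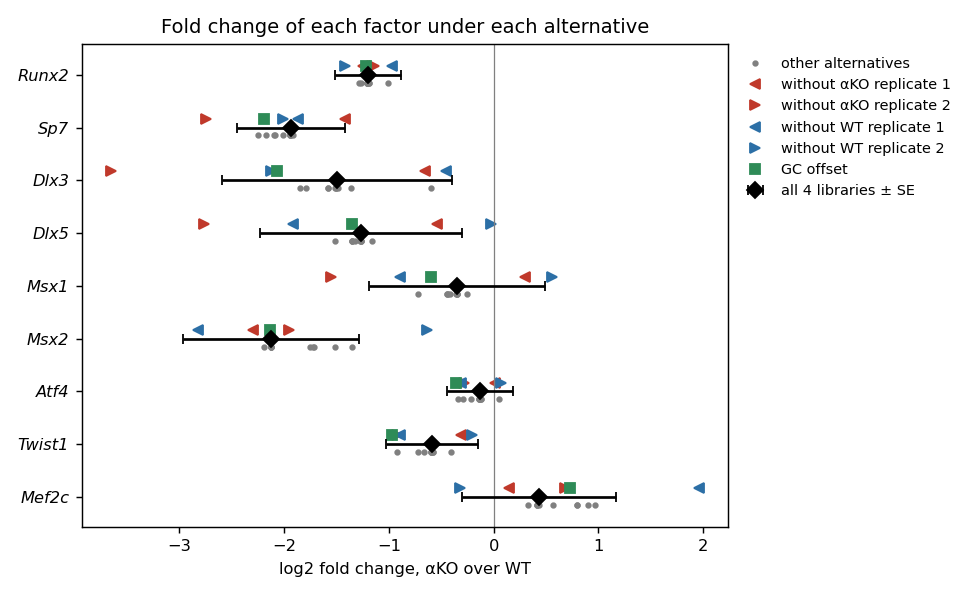
Log2 fold change of αKO over WT (horizontal axis) for each factor, with the value from all 4 libraries and its standard error as black diamonds and the 15 alternatives as other symbols. Runx2 and Sp7 stay under 0, between -1.42 and -0.97 and between -2.75 and -1.42, while Msx1, Atf4 and Mef2c cross 0 with the library left out.

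The order of the factors by level, which needs a scale per gene length, differed between the genotypes, with Sp7 at rank 2 in WT and 4 in αKO and Mef2c at rank 6 in WT, where its libraries lay far apart, and 3 in αKO. In WT libraries Atf4 led at 387 ± 57.9 TPM (SD, n = 2), followed by Sp7 at 66.8 ± 7.18 TPM, Twist1 at 37.8 ± 11.1 TPM and Runx2 at 24.0 ± 6.02 TPM, and none of Atf4, Sp7 and Twist1 overlapped with the next in this order. Runx2, Dlx5 (21.1 ± 16.6 TPM), Mef2c (18.5 ± 17.6 TPM), Msx2 (5.45 ± 4.81 TPM) and Msx1 (4.67 ± 2.94 TPM) overlapped each with the next, and Dlx3 was last at 1.02 ± 0.785 TPM. In αKO libraries Atf4 again led at 315 ± 38.9 TPM. Twist1 (22.4 ± 6.29 TPM), Mef2c (21.6 ± 5.85 TPM), Sp7 (15.4 ± 9.17 TPM), Runx2 (9.22 ± 0.636 TPM), Dlx5 (7.90 ± 7.14 TPM) and Msx1 (3.30 ± 2.60 TPM) followed, each overlapping with the next, and then Msx2 (1.14 ± 0.211 TPM) and Dlx3 (0.311 ± 0.344 TPM). Sp7 thus stood above Twist1 in both WT libraries and under it in both αKO libraries. Per gene length, Sp7 was 0.918-fold and 2.49-fold the level of Runx2 in αKO replicates 1 and 2 and 2.55-fold and 3.13-fold in WT, so that αKO replicate 1 stood apart.

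Around the factors, their known partners and closest relatives had medians near that of all genes, whereas other skeletal transcription factors and bone targets had medians under 0 that depended on single WT libraries. Of 15 partner genes, 8 had a log2 fold change under 0 and 7 above, with a median of -0.06, where the median of all genes tested was -0.01. Cbfb, the obligate partner of RUNX2 on DNA, was at 121 and 99.0 CPM in αKO and 141 and 78.9 CPM in WT, so the genotypes overlapped.

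Of the 16 closest relatives 12 could be tested, 9 under 0 and 3 above, with a median log2 fold change of -0.09 and none at an unadjusted p under 0.05. Runx1, the runt protein of blood cells, was at 67.5 and 65.6 CPM in αKO and 68.1 and 58.4 CPM in WT, so the genotypes overlapped. The smallest p were those of Dlx2, at 0.114 and 0.484 CPM in αKO and 0.300 and 6.43 CPM in WT, and of Dlx6, the neighbour of Dlx5, at 0.495 and 1.69 CPM in αKO and 2.62 and 3.39 CPM in WT. Dlx6 was the only 1 of the 12 that was lower without overlap, against 16.0% of all genes. Dlx2 rested on WT replicate 2, with a log2 fold change of -3.48 from all libraries and -0.05 without that library.

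Of 36 other transcription factors of skeletal mesenchyme, cartilage or bone, 31 could be tested. Of these 31, 27 had a log2 fold change under 0 (50.8% of all genes), with a median of -0.95. In 8 both αKO libraries lay under both WT libraries, against 16.0% of all genes. At an unadjusted p under 0.05 in edgeR 4 were lower, against 2.59% of all genes. Tcf7, an effector of WNT signals, was at 2.67 and 2.38 CPM in αKO and 15.7 and 6.58 CPM in WT, a log2 fold change of -2.14 (unadjusted p = 0.0120, adjusted p = 0.902 in edgeR), or -1.36 without WT replicate 1. Gli3 of the hedgehog pathway, the limb mesenchyme factor Prrx1 and Zeb1 were lower by log2 fold changes of -1.08, -1.05 and -1.05, also at an unadjusted p under 0.05. The direction of the list as a whole rested on WT replicate 2, without which 16 of 31 were under 0 and the median was -0.03.

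Of the 15 bone targets of these factors, 13 could be tested, and 12 had a log2 fold change under 0 (50.8% of all genes) with a median of -1.08. The abundant Spp1, Col1a1 and Col1a2 hardly differed and overlapped between genotypes, with log2 fold changes of -0.05, 0.002 and -0.05. In 5 both αKO libraries lay under both WT libraries, against 16.0% of all genes. At an unadjusted p under 0.05 in edgeR 4 were lower, against 2.59% of all genes. Bglap, the osteocalcin gene whose promoter is shown above, had 5 and 7 counts in αKO, or 0.191 and 0.282 CPM, and 1.05 and 4.04 CPM in WT, a log2 fold change of -3.40 (standard error 0.889, unadjusted p = 0.0115, adjusted p = 0.902 in edgeR), or -2.17 without WT replicate 2. Bglap2, Dmp1, which encodes a matrix protein of osteocytes, and Mmp13, a collagenase, were lower by log2 fold changes of -2.45, -2.45 and -1.19 at an unadjusted p under 0.05, and the αKO libraries of all 4 lay under their WT libraries. With 1 library left out, Bglap2 was at -0.9996 (without WT replicate 2), Dmp1 at -1.71 and -4.03 (without αKO replicates 1 and 2) and Mmp13 at -0.57 (without WT replicate 1). Bglap and Bglap2 share 56.6% and 88.2% of their 50-base words with other genes, so the split of reads between them is uncertain. Without WT replicate 1, 8 of 13 were under 0 and the median was -0.40, and without αKO replicates 1 and 2 the median was -0.61 and -1.73.

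Among the ATF4 targets listed here, genes of amino acid supply and the stress response, none that could be tested passed the unadjusted threshold. Late osteoblast genes such as Bglap were not part of this list and are given with the bone targets above. Of 28 genes of amino acid supply and the stress response, 27 could be tested, 22 under 0 (50.8% of all genes) with a median log2 fold change of -0.24. Lower without overlap were 6 of the 27 (16.0% of all genes), and 1 was higher without overlap (17.1%). The smallest p were those of Asns, asparagine synthetase, at 63.0 and 66.5 CPM in αKO and 92.7 and 114 CPM in WT, and of Slc7a11, the cystine transporter, at 22.1 and 16.6 CPM in αKO and 27.5 and 42.2 CPM in WT. Both were among these 6, but the direction of the list turned without WT replicate 2, with 9 of 27 under 0 and a median of 0.38. The Asns promoter (RefSeq, GRCm38.p6, chr6:7693160-7693459, minus strand) is shown with the ATF4 motif, TGATGNAA read on both strands, in capitals.
Asns: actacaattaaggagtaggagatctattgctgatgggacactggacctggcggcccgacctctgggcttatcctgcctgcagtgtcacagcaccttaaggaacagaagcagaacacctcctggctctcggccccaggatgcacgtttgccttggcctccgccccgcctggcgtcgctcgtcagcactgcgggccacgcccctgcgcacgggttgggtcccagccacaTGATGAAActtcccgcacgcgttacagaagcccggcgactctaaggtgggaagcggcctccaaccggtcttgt
The match begins at -23 from the transcript start. Of the 28 targets 22 had promoters in the table, 25 in all, and 10 of these 25 promoters hold the motif, against 3.97% of all promoters, and none of the promoters of the 6 factors does.

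**Figure D4:**
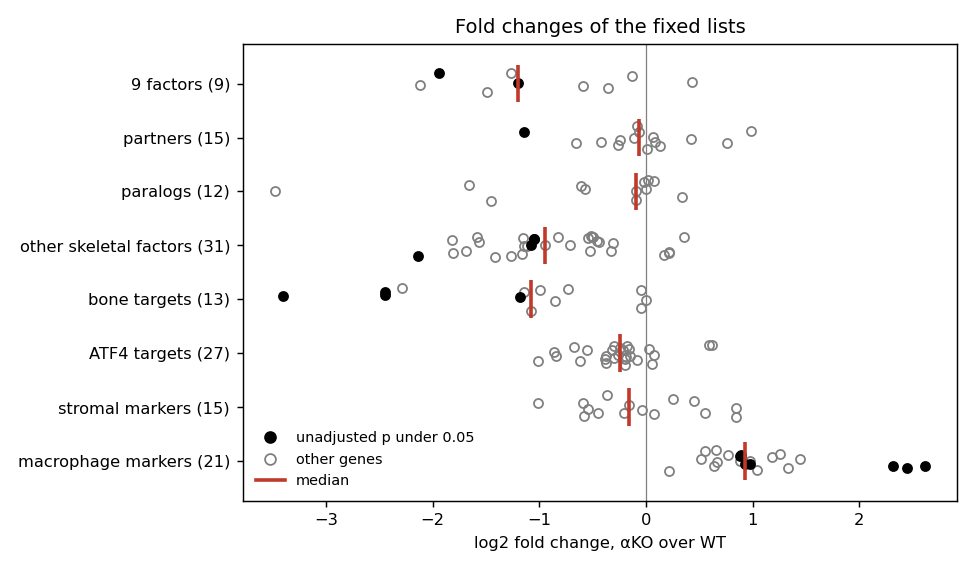
Log2 fold change of αKO over WT (horizontal axis) of each gene tested in 8 lists, with the number tested in brackets, filled circles at an unadjusted p under 0.05 and a red line at the median. With all 4 libraries the medians are -1.20 for the 9 factors, -1.08 for bone targets and -0.95 for other skeletal factors, and 0.93 for macrophage markers. With 1 library left out, the median of the 9 factors runs from -1.55 to -0.32.

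As with most of the factors, osteoblast and osteocyte markers were mostly lower in αKO, while macrophage markers were higher and summed stromal markers overlapped. Of 11 osteoblast markers, 10 had a log2 fold change under 0, and 8 of the 11 are also in the list of bone targets. Lower without overlap were 5 (16.0% of all genes), and lower at an unadjusted p under 0.05 in edgeR were 2 (2.59% of all genes). The median was -1.12, but -0.38 with 7 of 11 under 0 without WT replicate 1, and -0.61 without αKO replicate 1. Their summed levels were 11543 and 13257 CPM in αKO and 13929 and 15186 CPM in WT replicates 1 and 2. Most of each sum was Col1a1, Col1a2 and Sparc. Both collagen genes overlapped between genotypes, and Sparc was lower without overlap, with a log2 fold change of -0.51. Of 7 osteocyte markers the 4 that could be tested all had a log2 fold change under 0. Of these, 3 (Dmp1, Pdpn and Ptprz1) were lower without overlap (16.0% of all genes) and at an unadjusted p under 0.05 in edgeR (2.59%), while Phex overlapped. The 7 summed to 79.6 and 39.4 CPM in αKO and 226 and 227 CPM in WT. Most of this sum was Pdpn, at 76.3 and 31.7 CPM in αKO and 196 and 201 CPM in WT. All 21 macrophage markers had a log2 fold change above 0. Higher at an unadjusted p under 0.05 in edgeR were 7 (2.81% of all genes), and higher without overlap were 17 (17.1% of all genes). The median log2 fold change of the macrophage markers was 0.93, or 1.54 without WT replicate 1 and 0.51 without WT replicate 2. Their part in the lower CPM of Runx2 and Sp7 was not tested. The 15 stromal markers, at 7438 and 8610 CPM in αKO and 6865 and 9713 CPM in WT, overlapped between genotypes, and per 1000 CPM of these Runx2 was at 3.99 and 3.23 CPM in αKO and 10.9 and 5.90 CPM in WT. Sp7 was at 1.50 and 3.29 CPM in αKO and 11.4 and 7.57 CPM in WT on the same scale, so both factors stayed apart between the genotypes.

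**Figure D5:**
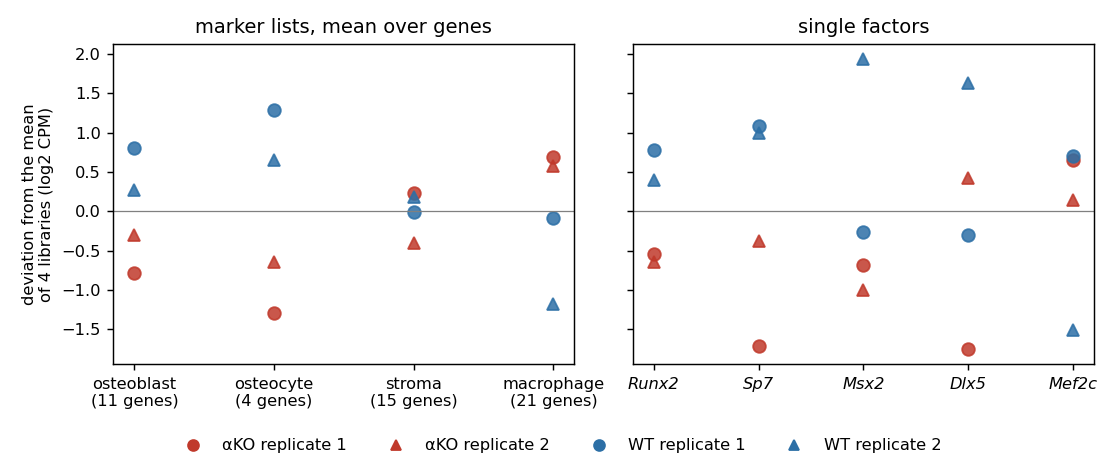
Deviation from the mean of the 4 libraries (vertical axis, log2 CPM), averaged over the genes tested of each marker list at left and for 5 of the factors at right. Mean osteoblast and osteocyte markers lie lower and macrophage markers higher in both αKO libraries, and Mef2c is lowest in WT replicate 2, as are the macrophage markers.

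The genes most like each factor over the 4 libraries were sought among 10561 genes with a mean of at least 5 CPM, by the root mean square distance of their log2 CPM deviations. With only 4 libraries such profiles carry little information, and the list is a description. Nearest to Runx2 were Yes1, a kinase of the Src family, at a distance of 0.0567, Xrcc5 and Tmeff1, and nearest to Sp7 was Cdh13, a cadherin without a cytoplasmic tail, at 0.0815, followed at a distance by Insc and Wdr72. Cdh13 was at 1.98 and 5.53 CPM in αKO and 15.6 and 15.7 CPM in WT, the pattern of Sp7 at a lower level. Dlx3 had Cyp26b1, which breaks down retinoic acid, Smpd3 and Ackr4, and Dlx5 had the homeobox gene Irx5, Cys1 and Eva1a. Msx1 was nearest to Zfp503, Syt13 and Pianp, and Msx2 to Mcpt8, a protease of basophils, Aif1l and Siglecg, all 3 highest in WT replicate 2. Atf4 had Nhlrc2, Pias3 and 1700030K09Rik, and Twist1 had Mxra8, Pdzrn3 and Fam216a. The nearest to Mef2c were Tlr13, Tnfrsf11a and Cd180, receptors of myeloid or lymphoid cells, of which Tlr13 was at 475 and 325 CPM in αKO and 511 and 118 CPM in WT replicates 1 and 2.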

How the data were processed

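RNA of primary osteocyte cultures of αKO and WT mice (2 libraries each) was sequenced by the authors. Their processing notes name the genome mm10, Trimmomatic 0.35 for trimming, HTSeq 0.9.1 for counts per gene and, for the comparison, R 3.4.0 with DESeq2 1.16.1. The aligner, the gene annotation and the strand setting are not given in the sources used here. The deposited counts per gene are raw, and the deposited TPM values are the authors' own. The authors' normalized counts and tables of comparisons (fold changes and p-values) were not used. Groups came from the labels of the samples.

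Counts were filtered with filterByExpr (minimum count 10), which kept 13571 of 37411 genes, scaled by TMM and tested in R 4.3.3 by edgeR 4.0.16 (quasi-likelihood), with p adjusted by Benjamini-Hochberg over all genes kept. These p-values rest on the spread between 2 libraries per genotype, with its estimate shared in part across genes, and do not measure that spread. Alternatives were library sizes alone, DESeq2 size factors, no filter on low counts, DESeq2 1.42.0, edgeR's likelihood ratio test, limma 3.58.1 (voom, and log2 of TPM with a pseudocount of 1), a GC offset (lowess span 0.3, for the 97.02% of genes kept with a GC value), a replicate block, both of these, each library left out in turn, and levels relative to stromal markers. A fit without 1 library assumes that the lone library varies like those of the other genotype. The 9 factors and all lists were chosen with earlier results of these data known. Every factor was named with its value in each library, and of each list the genes at an unadjusted p under 0.05 or, where there were none, those with the 2 smallest p. A list gene that this rule would name is not reported here. Runx1, Cbfb and Col2a1 were named beside the factors in addition, as were single genes of the target and marker lists. For each factor the 3 genes with the nearest profile were named. Gene models were those of GENCODE on GRCm38, the genome of mm10. Promoters of Sp7, Dlx3 and Dlx5 were not used here.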

Additional observations from a re-analysis of the deposited data

How the results depend on the processing

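Of the 9 factors, Runx2, Sp7, Dlx3, Dlx5, Msx2 and Twist1 kept a log2 fold change under 0 under all 15 alternatives. With 1 library left out, Msx1 ran from -1.55 to 0.56 (0.30 without αKO replicate 1 and 0.56 without WT replicate 2), Atf4 from -0.31 to 0.067 (0.0077 without αKO replicate 1 and 0.067 without WT replicate 2), and Mef2c from -0.32 to 1.95 (-0.32 without WT replicate 2). Atf4 was also at 0.047 relative to stromal markers. The count of all genes past an adjusted p of 0.05 was 0 in the quasi-likelihood fit, 52 with DESeq2, 28 with the likelihood ratio test and from 1 to 806 with 1 library left out. Of the 9 factors, from 0 to 2 passed then, Msx2 and Mef2c without WT replicate 1 and Runx2 and Sp7 without WT replicate 2. At an unadjusted p the 2 factors became 4 with the GC offset (6.61% of all genes lower and 4.41% higher), 4 with the GC offset and the replicate block together (6.53% and 6.84%), and from 0 to 6 with 1 library left out. The 0 stood without αKO replicate 1 (1.14% and 1.00%) and the 6 without WT replicate 1 (9.98% and 10.8%). The factors with both αKO libraries under both WT libraries, 3 on the CPM scale, were 6 with the GC trend removed (23.0% of all genes), 5 in TPM (24.3%) and from 3 to 8 with 1 library left out, where 22.7% to 39.8% of all genes lie so, since 1 library against 2 overlaps less often. The counts under 0 of the lists were run under the same alternatives after the data were seen: with 1 library left out, the other skeletal factors ran from 16 to 28 of 31 and the ATF4 targets from 9 to 24 of 27, and the partners were 5 of 15 in limma voom. Library sizes alone moved the median of all genes to -0.09 and TPM to -0.11 (log2). The cause of these differences was not tested.

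Replicate numbers are shared by the genotypes in the labels, but nothing says that equal numbers share a litter or day. With the replicate block, 1 gene passed an adjusted p of 0.05, 4 factors an unadjusted p of 0.05 (Runx2, Sp7, Dlx5 and Msx2, beside 4.30% of all genes lower and 6.76% higher), and 5 of 15 partners lay under 0. Deviations of αKO replicate 1 and WT replicate 1 from their group means correlated at 0.487 across 13571 genes, which are not independent replicates.

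Depth limits Dlx3 most, at 2 to 41 counts per library. 2 libraries per genotype, a GC trend that differs between them, unknown strand counting and a culture with many macrophages limit the rest.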

Other observations

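Pairs of related factors kept different ratios in the 4 libraries. Per gene length, Dlx5 was 0.294-fold and 1.48-fold the level of Runx2 in αKO replicates 1 and 2, and 0.330-fold and 1.66-fold in WT replicates 1 and 2, so this ratio followed the replicate number and not the genotype. Msx1 was 1.13-fold and 5.16-fold the level of Msx2 in αKO and 1.27-fold and 0.763-fold in WT, with αKO replicate 2 apart. Of the other relatives, Runx3 was at 18.8 and 17.5 CPM in αKO and 17.0 and 38.4 CPM in WT, and Twist2 at 0.762 and 1.49 CPM in αKO and 0.487 and 6.66 CPM in WT, both highest in WT replicate 2. Mef2a, unlike Mef2c, stayed within 143 to 227 CPM in all 4 libraries, with 218 and 152 CPM in αKO and 227 and 143 CPM in WT. These values, chosen after they were seen, carry no test.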
